A study of Mus musculus with 7 samples.

Results

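Macrophage and phagocyte genes were followed in aged mouse skin as a set of 38 genes, among 55450 gene rows in the deposited counts. The members were listed by name, as genes of macrophage identity, scavenging, repair and lipid handling. No threshold on their values was used, but the list was drawn up with earlier results of these data known. All 38 passed the filter on low counts and were among the 17959 genes tested. Of these, 36 also had at least 10 counts in every library, the exceptions being Ly6c2 and Marco.

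Wild-type C57BL/6 male mice aged 24 months had the dorsal hair clipped and chemically removed, and the skin was then covered with either 5 µM ABT-263 in DMSO (3 mice, numbered 476, 477 and 478) or DMSO alone (4 mice, numbered 480 to 483) under a semi-occlusive dressing for 5 days. ABT-263 (navitoclax) inhibits anti-apoptotic proteins of the BCL-2 family and is used as a senolytic, an agent that kills senescent cells. Each library came from the homogenized skin of 1 mouse and held markers of epidermis, dermis, fat and muscle, while the macrophage markers Adgre1, Cd68 and Csf1r were detected in all 7. Hair removal, DMSO and the dressing were shared by both groups, and no untreated skin was analysed here.

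Macrophages are phagocytes that take up microbes, debris and dying cells. In skin they comprise long-lived resident cells of the dermis, often marked by Folr2, Cd163 and Mrc1, and cells that arise from blood monocytes carrying Ccr2 and Ly6c. Lipid-laden macrophages of several tissues express Trem2, Gpnmb and Apoe, and macrophages of repairing tissue are known for Arg1, Chil3 and Retnla. Several of these genes are not exclusive to macrophages: the lectin and Fc receptor genes are also expressed by neutrophils, and Apoe and Maf by other cells of the skin.

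Most of the genes were higher after ABT-263. Of the 38 genes, 24 rose and 2 fell, by edgeR's quasi-likelihood test with Benjamini-Hochberg adjustment over all genes tested, which is the source of every adjusted p below unless another test is named. Over all genes tested, 12.4% rose and 11.7% fell. The median log2 fold change was 1.64 over the 38 genes and 0.00 over all genes tested, and every gene that rose did so by more than 2-fold, with 8 of them above 8-fold. The size of the rise rested in part on ABT-263 mouse 476: without it 1 of the 24 (Arg1) was above 8-fold, and Spi1, Mrc1 and Ccr2 were below 2-fold. In 28 genes the lowest ABT-263 mouse lay above the highest DMSO mouse, and in 2 the highest ABT-263 mouse lay below the lowest DMSO mouse, against 18.7% and 18.4% of all genes tested.

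The rise was uneven between the treated mice. ABT-263 mouse 476 had the highest level of the 3 treated mice in 31 of the 38 genes, against 33.6% of all genes tested, and mouse 477 had the lowest in 27. Without mouse 476, the median of the 38 genes was 1.22, and 11 of the 24 genes remained past the threshold, against 6.01% of all genes higher in that fit. The other 13 lost the call. The count of genes that rose also varied with the other mice. It was 15, 13, 6 and 4 without DMSO mice 480, 481, 482 and 483, against 11.6%, 7.95%, 4.8% and 5.58% of all genes, and 23 and 14 without ABT-263 mice 477 and 478, against 12.3% and 5.22%. With every gene that had a count kept in the fit, 3 of the 38 rose (Csf1r, Cd163 and Arg1), against 6.11% of all genes. Cd163, Fcgr3 and Arg1 were past the threshold whichever 1 of the 7 mice was left out. By contrast, Adgre1, Spi1, Ccr2 and Fcgr4 passed in only 1 of these 7 fits, and Cd68, Mrc1, Ly6c2, Plac8 and Fcgr1 in 2. Their calls were thus lost on leaving out most of the single mice, not mouse 476 alone. In bulk tissue, a change in the number of macrophages cannot be told apart from a change in RNA per cell.

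**Figure D1:**
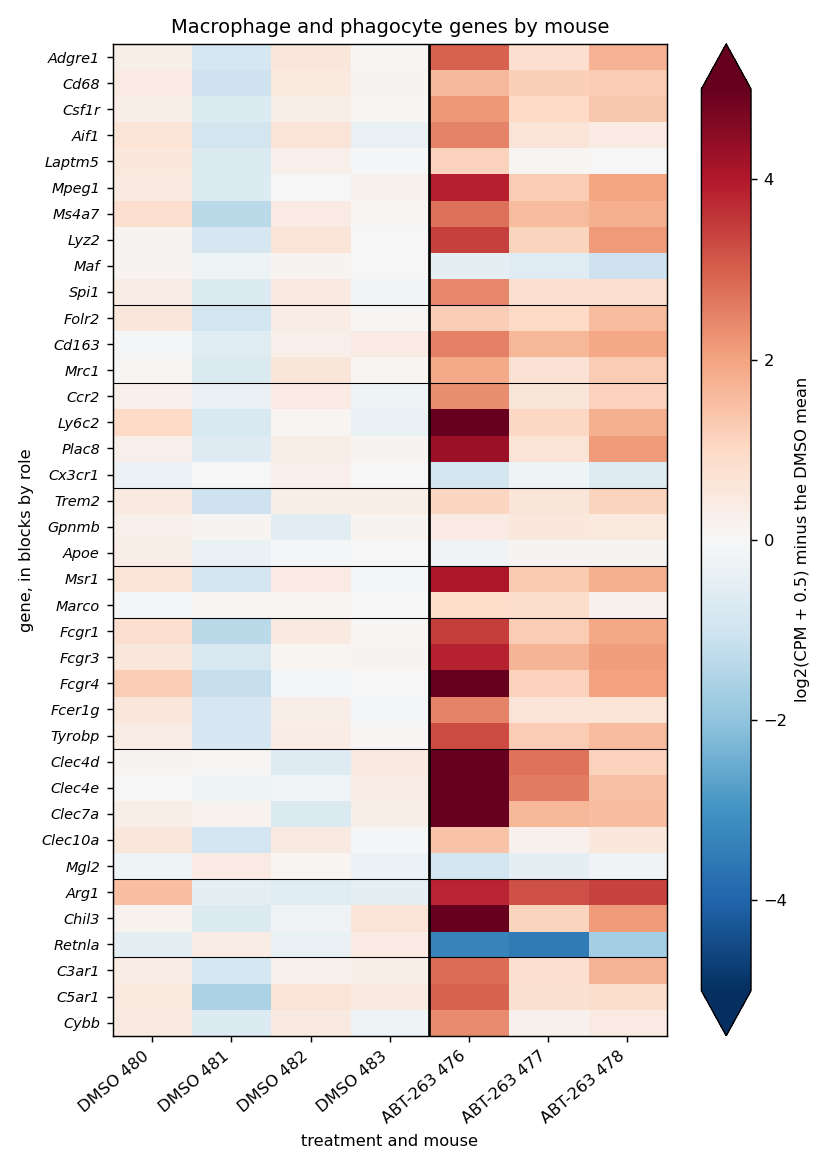
Each cell is 1 gene (rows, in blocks by role) in 1 mouse (columns), colored by log2(CPM + 0.5) minus the mean of the 4 DMSO mice, with the color scale ending at 5 in either direction. Most rows are red in all 3 ABT-263 mice and darkest in mouse 476, the highest treated mouse in 31 of 38 genes, while Retnla is blue in all 3.

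The 7 libraries held 20344364 to 26824123 counts in DMSO mice and 27325963 to 43562330 in ABT-263 mice, so depth differed with treatment. The 38 genes took 0.512% to 0.714% of the counts in DMSO mice and 0.742% to 1.11% in ABT-263 mice. After TMM normalization their summed level overlapped between groups, at 4832 to 7837 CPM in DMSO mice and 7301 to 10860 CPM in ABT-263 mice. Apoe, which did not pass the test, was the largest part of these counts. It held 149590 of 191536 in DMSO mouse 480 and 119405 of 303760 in ABT-263 mouse 476. Thinning all libraries to the same total left 24 genes higher and 2 lower among 37 tested. Levels below are CPM, read pairs of a gene scaled to a common library size by TMM normalization, and levels of different genes are compared only after division by the length of their merged exons. On that scale, in CPM per kilobase averaged over the DMSO mice, Apoe was the highest at 2291, followed by Retnla at 189, Lyz2 at 119 and Fcer1g at 63.98. At the other end were Marco at 0.1597, Clec4e at 0.269 and Ly6c2 at 0.393 CPM per kilobase. In ABT-263 mice Apoe was again the highest, at 2307, with Lyz2 next at 643 CPM per kilobase, and Retnla stood at 29.3.

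Promoter sequences of 6 members are given to show the DNA before 5 genes that rose, from 4 of the roles, and before Retnla, which fell. They are RefSeq sequences of GRCm38.p6, read 5′ to 3′ on the strand of the gene, from 250 bases before the start of the transcript and cut where GENCODE M21 places an exon. Capitals mark GAGGAA or its reverse complement TTCCTC, the core letters bound by PU.1, the factor that Spi1 encodes. The windows are Mrc1 (chr2:14229164-14229391, plus strand), Cd163 (chr6:124304401-124304650, plus strand), Ly6c2 (chr15:75111972-75112221, minus strand), Clec4e (chr6:123289872-123290121, minus strand), Fcgr4 (chr1:171018676-171018919, plus strand) and Retnla (chr16:48842359-48842550, plus strand).
Mrc1: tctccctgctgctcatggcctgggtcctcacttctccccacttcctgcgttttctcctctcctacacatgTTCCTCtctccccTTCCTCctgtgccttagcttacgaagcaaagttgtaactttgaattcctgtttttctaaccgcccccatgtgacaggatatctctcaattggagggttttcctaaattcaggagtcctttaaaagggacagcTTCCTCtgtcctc
Cd163: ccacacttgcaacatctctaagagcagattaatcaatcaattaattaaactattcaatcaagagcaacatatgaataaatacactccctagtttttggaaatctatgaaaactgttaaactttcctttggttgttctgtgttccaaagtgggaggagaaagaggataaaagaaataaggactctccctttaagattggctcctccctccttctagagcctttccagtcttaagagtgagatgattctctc
Ly6c2: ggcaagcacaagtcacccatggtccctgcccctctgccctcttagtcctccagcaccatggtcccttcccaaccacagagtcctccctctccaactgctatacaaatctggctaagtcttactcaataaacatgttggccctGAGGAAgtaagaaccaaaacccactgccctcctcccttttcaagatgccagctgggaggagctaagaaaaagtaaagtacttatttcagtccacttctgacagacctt
Clec4e: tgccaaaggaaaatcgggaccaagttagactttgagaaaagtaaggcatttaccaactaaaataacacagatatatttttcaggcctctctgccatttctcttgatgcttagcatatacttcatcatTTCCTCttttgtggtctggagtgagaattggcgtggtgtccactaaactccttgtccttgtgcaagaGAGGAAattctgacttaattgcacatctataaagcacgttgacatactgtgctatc
Fcgr4: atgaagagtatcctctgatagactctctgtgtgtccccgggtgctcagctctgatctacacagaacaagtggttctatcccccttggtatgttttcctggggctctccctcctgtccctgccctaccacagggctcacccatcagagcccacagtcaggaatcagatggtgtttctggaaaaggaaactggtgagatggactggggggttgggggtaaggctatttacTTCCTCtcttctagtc
Retnla: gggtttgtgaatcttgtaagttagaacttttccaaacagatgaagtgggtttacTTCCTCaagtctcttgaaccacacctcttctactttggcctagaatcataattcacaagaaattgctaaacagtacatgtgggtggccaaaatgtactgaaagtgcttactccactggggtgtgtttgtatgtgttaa

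The Mrc1 window held 3 copies of these letters, beginning 180, 167 and 35 bases before the start. Clec4e held 2, beginning 123 and 56 bases before it. Ly6c2 held 1 at 108 bases, Fcgr4 1 at 22 bases and Retnla 1 at 196 bases before the start, and the Cd163 window held none. Over the 250 bases before the start, on both strands, the letters occurred in 17 of the 30 members with a RefSeq entry (56.7%) and in 25.9% of 27025 genes. The longer form GAGGAAGT, which contains the first, occurred in 3 of 30 members (Fcgr4, Ly6c2 and Retnla, 10%) and in 2.79% of genes. Among these 30 members, 10 of the 18 that rose held the core letters, as did Retnla, the 1 member with an entry that fell, and 6 of the 11 that did not pass the test. Adgre1, Tyrobp, Msr1, Arg1, Csf1r, Clec10a, Spi1 and Maf had no entry.

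Of 10 genes of macrophage identity, 7 rose and 1 fell, and their summed level was 967, 537, 997 and 787 CPM in DMSO mice 480 to 483 and 3195, 1060.03 and 1395 CPM in ABT-263 mice 476 to 478. Adgre1 encodes F4/80, the surface protein by which mouse macrophages are most often stained. It was at 11.9, 5.06, 14.4 and 9.98 CPM in DMSO mice 480 to 483 and at 78.9, 17.9 and 33.6 CPM in ABT-263 mice 476 to 478, so that the groups did not overlap, and rose 4.204-fold, with a log2 fold change of 2.07 ± 0.52 (SE, adjusted p = 0.0291). Without mouse 476 its log2 fold change was 1.32 and it did not pass (adjusted p = 0.0778). Csf1r, the receptor for the growth factors on which macrophages depend, was at 72.1, 35.8, 71.2 and 59.8 CPM in DMSO mice 480 to 483 and at 264, 115 and 147 CPM in ABT-263 mice 476 to 478. It rose by 1.55 ± 0.33 (SE, adjusted p = 0.0176) on the log2 scale and kept the call without mouse 476, at 1.14 (adjusted p = 0.0384). Cd68, a glycoprotein of the lysosome, differed little between treated mice, at 51.2, 18.4, 54.6 and 42.1 CPM in DMSO mice 480 to 483 and at 118, 87.3 and 92.9 CPM in ABT-263 mice 476 to 478. It rose by 1.26 ± 0.34 (SE, adjusted p = 0.0333) on the log2 scale, with 1.12 without mouse 476 (adjusted p = 0.104).

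Mpeg1, which encodes the pore-forming perforin-2 of phagocytes, and Lyz2, the lysozyme of myeloid cells, changed the most within this group. Mpeg1 was at 24.1, 10.9, 17.8 and 20.5 CPM in DMSO mice 480 to 483 and at 266, 43.3 and 71.3 CPM in ABT-263 mice 476 to 478, a log2 change of 2.79 ± 0.61 (SE, adjusted p = 0.0198). Lyz2 was at 163, 83.1, 233 and 149 CPM in DMSO mice 480 to 483 and at 1576, 323 and 642 CPM in ABT-263 mice 476 to 478, a log2 change of 2.43 ± 0.55 (SE, adjusted p = 0.02099). In both, mouse 476 was far above the other treated mice, which were themselves above all 4 DMSO mice, and both kept the call without it (log2 changes of 1.65 and 1.62, adjusted p = 0.0236 and 0.0468). Lyz2 shares 15.4% of its 50-base stretches with Lyz1, which was measured between 4.76 and 8.37 CPM in the DMSO mice and between 3.71 and 7.91 CPM in the ABT-263 mice. Ms4a7, a tetraspan membrane protein of macrophages, lay between 2.82 and 14.6 CPM in the DMSO mice and between 25.5 and 56.7 CPM in the ABT-263 mice and rose by 1.99 ± 0.52 (SE, adjusted p = 0.03105) on the log2 scale.

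Spi1, the gene of PU.1, the factor needed for the macrophage lineage, was at 31.6, 14.96, 33.9 and 22.1 CPM in DMSO mice 480 to 483 and at 131, 42.7 and 44.4 CPM in ABT-263 mice 476 to 478. Its log2 change of 1.502 ± 0.46 (SE, adjusted p = 0.0486) was the closest to the threshold among the genes that rose, and it was 0.77 (adjusted p = 0.131) without mouse 476. Maf, which encodes a transcription factor of resident macrophages and of other cells, went the other way. It was at 341, 262, 341 and 313 CPM in DMSO mice 480 to 483 and at 222, 206 and 151 CPM in ABT-263 mice 476 to 478, with every treated mouse below every DMSO mouse and a log2 change of -0.704 ± 0.18 (SE, adjusted p = 0.0289). Without mouse 476 the change of Maf was -0.81 (adjusted p = 0.0441), and it passed in 3 of the 7 fits that omit 1 mouse. Aif1, the gene of the actin-binding protein IBA1, and Laptm5, a lysosomal protein of blood cells in general, had log2 changes of 1.35 and 0.44 with overlapping groups and did not pass (adjusted p = 0.131 and 0.401). For Laptm5 the change without mouse 476 was -0.03, of the opposite sign.

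**Figure D2:**
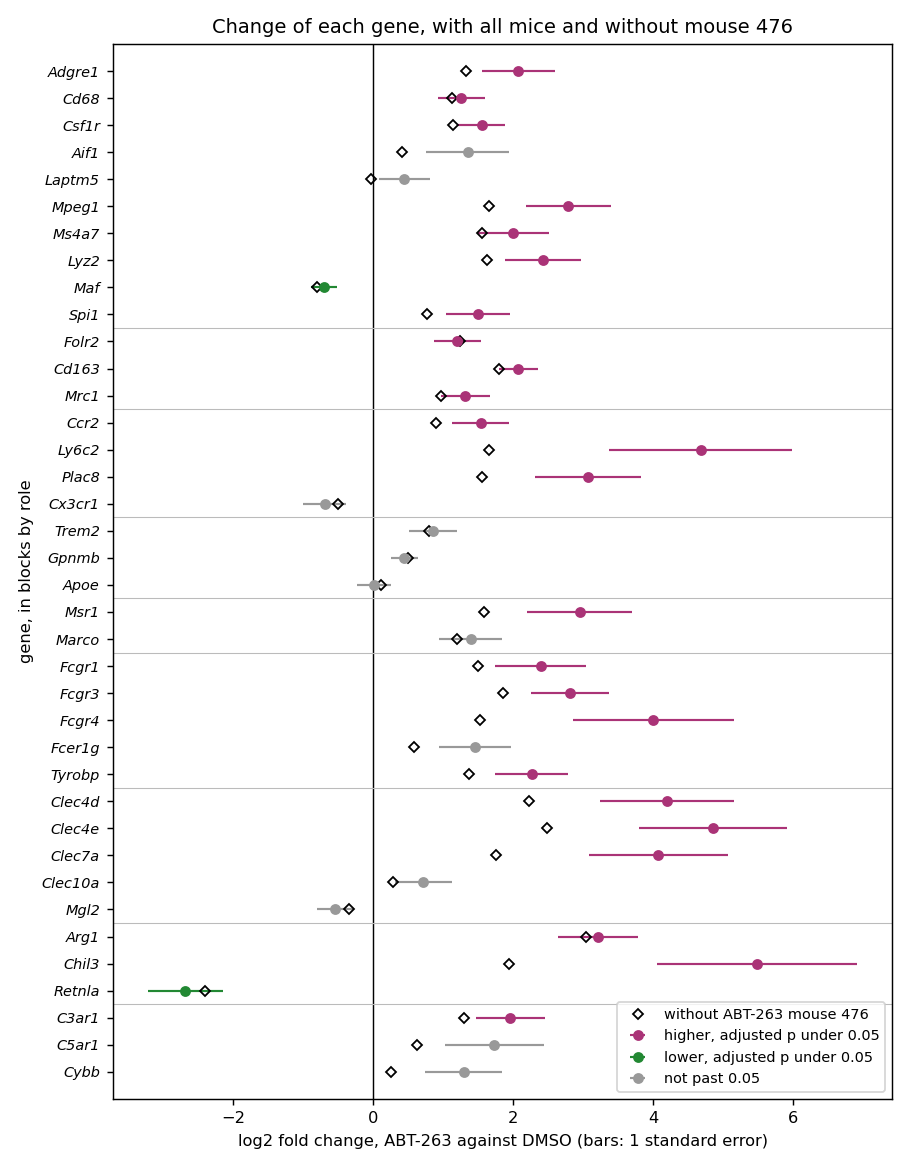
Points give the log2 fold change of ABT-263 against DMSO for each of the 38 genes with bars of 1 standard error (4 DMSO and 3 ABT-263 mice), colored by the edgeR call, and open diamonds the same value without ABT-263 mouse 476. In 32 genes the change with all mice is the larger number, and the gap is widest for Chil3 (5.49 against 1.94) and Ly6c2 (4.68 against 1.66).

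All 3 genes of resident dermal macrophages rose, with no overlap between groups. Cd163, the scavenger receptor for hemoglobin bound to haptoglobin, was at 14.2, 9.61, 17.6 and 19.5 CPM in DMSO mice 480 to 483 and at 86.2, 47.6 and 58.2 CPM in ABT-263 mice 476 to 478. It rose 4.21-fold, a log2 change of 2.07 ± 0.28 (SE, adjusted p = 0.00628), and at 1.804 changed little without mouse 476 (adjusted p = 0.0153). Folr2, a folate receptor, was at 29.9, 10.03, 25.7 and 20.7 CPM in DMSO mice 480 to 483 and at 47.6, 40.6 and 60.6 CPM in ABT-263 mice 476 to 478, so that its highest level was in mouse 478 and not in mouse 476. Its log2 change was 1.201 ± 0.34 (SE, adjusted p = 0.0375) with all mice and 1.24 without mouse 476, where the adjusted p of 0.0893 did not pass. Mrc1, the mannose receptor CD206, was at 53.03, 30.3, 76.5 and 53.7 CPM in DMSO mice 480 to 483 and at 189.95, 84.7 and 124 CPM in ABT-263 mice 476 to 478 and rose by 1.32 ± 0.35 (SE, adjusted p = 0.0322) on the log2 scale, with 0.97 without mouse 476 (adjusted p = 0.0982). The 3 genes summed to 97.1, 49.97, 119.7 and 93.8 CPM in DMSO mice 480 to 483 and 324, 173 and 243 CPM in ABT-263 mice 476 to 478.

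Of 12 other genes known from resident macrophages, 2 rose and none fell, with a median log2 change of 0.704. Without mouse 476 it was 1 gene (Vsig4) and a median of 0.46. A count of 2 of 12 is close to the 12.4% of all genes that rose. These were Vsig4, a complement receptor, which lay between 0.548 and 2.21 CPM in the DMSO mice and between 3.18 and 5.93 CPM in the ABT-263 mice, and Siglec1, a sialic acid receptor, which lay between 1.73 and 8.26 CPM in the DMSO mice and between 9.43 and 27.7 CPM in the ABT-263 mice. Lyve1, the hyaluronan receptor after which these cells are often named, lay between 8.93 and 26.6 CPM in the DMSO mice and between 19.6 and 49.7 CPM in the ABT-263 mice, with overlapping groups and a log2 change of 0.74 ± 0.46 (SE, adjusted p = 0.273). Timd4 lay between 0.818 and 2.51 CPM in the DMSO mice and between 1.18 and 2.07 CPM in the ABT-263 mice, also with overlap.

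Of 4 genes that mark recruited monocytes, 3 rose, and none of them passed without mouse 476. Their calls were also lost without most of the other mice, as Ccr2 passed in 1 of the 7 fits that omit 1 mouse, and Ly6c2 and Plac8 in 2 each. Ccr2, the chemokine receptor that brings monocytes out of the bone marrow and into tissue, was at 25.2, 16.01, 28.1 and 17.4 CPM in DMSO mice 480 to 483 and at 108, 32.5 and 47.8 CPM in ABT-263 mice 476 to 478. It rose by 1.53 ± 0.41 (SE, adjusted p = 0.0331) on the log2 scale, and by 0.896 without mouse 476 (adjusted p = 0.0649). Ly6c2 encodes a surface antigen of classical monocytes. It was at 2.33, 0.337, 1.03 and 0.616 CPM in DMSO mice 480 to 483 and at 76.9, 2.42 and 4.38 CPM in ABT-263 mice 476 to 478, so that mouse 476 stood far above all others and the lowest treated mouse lay just above the highest DMSO mouse. Its log2 change was 4.68 ± 1.31 (SE, adjusted p = 0.0401), against 1.66 without mouse 476 (adjusted p = 0.139). Ly6c2 shares 12.6% of its 50-base stretches with Ly6c1, an endothelial gene measured between 67.5 and 119 CPM in the DMSO mice and between 113 and 208 CPM in the ABT-263 mice.

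Plac8, a small cysteine-rich protein of monocytes and neutrophils, was at 21.2, 11.3, 21.8 and 19.6 CPM in DMSO mice 480 to 483 and at 358, 29.3 and 79.2 CPM in ABT-263 mice 476 to 478. It rose by 3.07 ± 0.76 (SE, adjusted p = 0.02795) on the log2 scale, with 1.56 without mouse 476 (adjusted p = 0.05604). Cx3cr1, the fractalkine receptor of patrolling monocytes, Langerhans cells and some resident macrophages, was the exception. It was at 2.29, 2.91, 3.54 and 2.999 CPM in DMSO mice 480 to 483 and at 1.29, 2.47 and 1.65 CPM in ABT-263 mice 476 to 478, the lowest level being in mouse 476, and its log2 change of -0.695 ± 0.31 (SE, adjusted p = 0.128) did not pass. Ccr2 and Cx3cr1 lie on the same chromosome, at chr9:124101950-124113557 and chr9:119901616-120069879, and differed in sign.

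Among 10 other genes of monocytes, 7 rose and none fell, with a median log2 change of 2.87 (1.44 and 5 genes without mouse 476). The 3 with the smallest p were Vcan, a matrix proteoglycan, Cd14, the co-receptor for lipopolysaccharide, and Ccr1, a chemokine receptor. Vcan lay between 10.4 and 13.96 CPM in the DMSO mice and between 21.1 and 49.4 CPM in the ABT-263 mice. Cd14 lay between 12.6 and 15.6 CPM in the DMSO mice and between 30.03 and 401 CPM in the ABT-263 mice and Ccr1 between 1.35 and 4.31 CPM in the DMSO mice and between 11.7 and 103 CPM in the ABT-263 mice. None of these 3 had overlapping groups.

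None of the 3 lipid-associated genes passed the test. Trem2, a lipid-sensing receptor that signals through Tyrobp, was at 24.1, 8.22, 21.7 and 21.4 CPM in DMSO mice 480 to 483 and at 37.2, 27.02 and 37.96 CPM in ABT-263 mice 476 to 478. Every treated mouse lay above every DMSO mouse, and the log2 change was 0.85 ± 0.34 (SE, adjusted p = 0.1003). Gpnmb, a glycoprotein of lysosomes in lipid-laden macrophages and of melanosomes, was at 47.8, 43.4, 27.2 and 44.04 CPM in DMSO mice 480 to 483 and at 52.2, 57.4 and 56.2 CPM in ABT-263 mice 476 to 478, also without overlap, with a log2 change of 0.44 ± 0.19 (SE, adjusted p = 0.118). Apoe, the lipid carrier that many skin cells make, was at 6121, 3851, 4670.5 and 4954 CPM in DMSO mice 480 to 483 and at 4269, 5268 and 5261 CPM in ABT-263 mice 476 to 478. The groups overlapped and the log2 change was 0.01 ± 0.25 (SE, adjusted p = 0.9805). The standard error was many times the change. Among 11 other genes of lipid handling in macrophages, 2 rose and none fell, with a median log2 change of 0.603. Which cells of the whole skin expressed these 11 genes was not tested. The count is close to the 12.4% of all genes that rose, and none of the 11 rose without mouse 476. The 2 genes were Spp1, osteopontin, which lay between 3.56 and 16.2 CPM in the DMSO mice and between 11.7 and 93.4 CPM in the ABT-263 mice, with overlap, and Lipa, the lysosomal acid lipase, which lay between 11.7 and 26.1 CPM in the DMSO mice and between 32.4 and 45.8 CPM in the ABT-263 mice. The 4 melanocyte markers, which bear on Gpnmb, summed to between 81.2 and 301 CPM in the DMSO mice and between 7.19 and 48.8 CPM in the ABT-263 mice, and their part in its value was not tested.

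**Figure D3:**
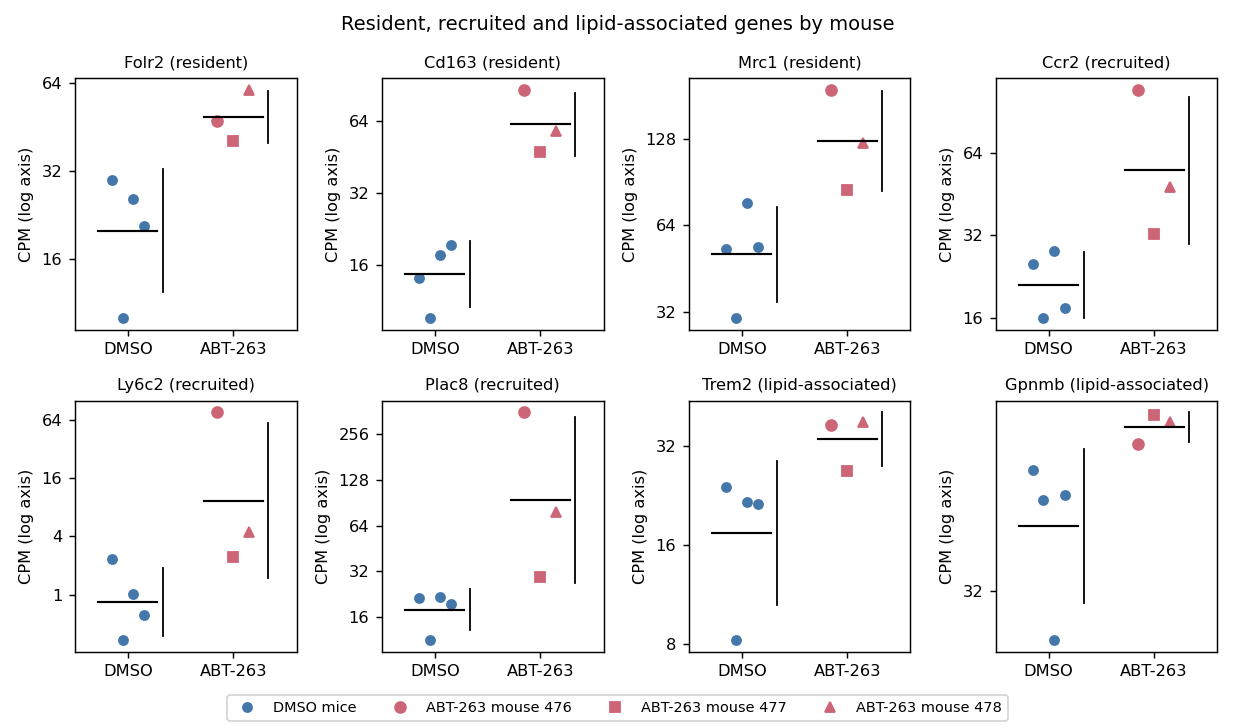
CPM on a log axis in each of the 7 mice for 3 resident, 3 recruited and 2 lipid-associated genes, with horizontal lines at the mean of log2 CPM of each group and vertical bars of 1 SD on that scale. Treated mice lie above all DMSO mice in each of the 8 panels, and mouse 476 stands farthest from its group in Ly6c2 (76.9 CPM) and Plac8 (358 CPM).

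Whether recruited or lipid-associated genes changed more than resident ones was examined as the log2 ratio of the levels of a pair of genes within each mouse, with 0.5 CPM added to each level. The added 0.5 CPM weighs most on Ly6c2, which was low in the DMSO mice. The 15 pairs set Ccr2, Ly6c2, Plac8, Trem2 and Gpnmb each against Folr2, Cd163 and Mrc1. An exact two-sided permutation test over the 35 divisions of 7 mice into 4 and 3 can give no p below 0.0286. None of the 15 passed after Benjamini-Hochberg adjustment over them, the lowest adjusted p being 0.214. An adjusted p under 0.05 would have needed at least 9 of the 15 pairs at that smallest p, so that the missing calls say little about the ratios.

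The 9 ratios of a recruited to a resident gene overlapped between groups in every pair. The log2 ratio of Ly6c2 to Folr2 was -3.42, -3.65, -4.102 and -4.25 in DMSO mice 480 to 483 and 0.69, -3.82 and -3.65 in ABT-263 mice 476 to 478, a difference of 1.598 (exact permutation p = 0.143, adjusted p = 0.306). Mouse 476 alone lay apart, and mice 477 and 478 were within the range of the DMSO mice. Without mouse 476 the difference was 0.13, given as a value with no test. Of the 9 differences, 4 changed sign without mouse 476, namely Ccr2 to Folr2 (0.101 with all mice, -0.401 without), Ccr2 to Mrc1 (0.06 and -0.12), Ly6c2 to Cd163 (0.83 and -0.39) and Plac8 to Cd163 (0.33 and -0.398). That of Plac8 to Folr2 went from 1.098 to 0.12. For Ccr2 to Cd163 the difference with all mice was negative, -0.67 (exact permutation p = 0.114, adjusted p = 0.306). For Ccr2 to Mrc1 it was 0.06 (exact permutation p = 0.8286, adjusted p = 0.888).

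Of the 6 ratios of a lipid-associated to a resident gene, 3 were lower in every treated mouse than in any DMSO mouse. The log2 ratio of Trem2 to Cd163 was 0.74, -0.21, 0.296 and 0.14 in DMSO mice 480 to 483 and -1.201, -0.81 and -0.61 in ABT-263 mice 476 to 478, a difference of -1.11 (exact permutation p = 0.0286, adjusted p = 0.214). That of Trem2 to Folr2 was -0.304, -0.27, -0.24 and 0.05 in DMSO mice 480 to 483 and -0.35, -0.58 and -0.67 in ABT-263 mice 476 to 478, a difference of -0.34 (exact permutation p = 0.0286, adjusted p = 0.214). That of Gpnmb to Cd163 was 1.72, 2.12, 0.62 and 1.16 in DMSO mice 480 to 483 and -0.72, 0.27 and -0.05 in ABT-263 mice 476 to 478, a difference of -1.57 (exact permutation p = 0.0571, adjusted p = 0.286). The 3 pairs share Trem2 or Cd163, so they are not separate observations.

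**Figure D4:**
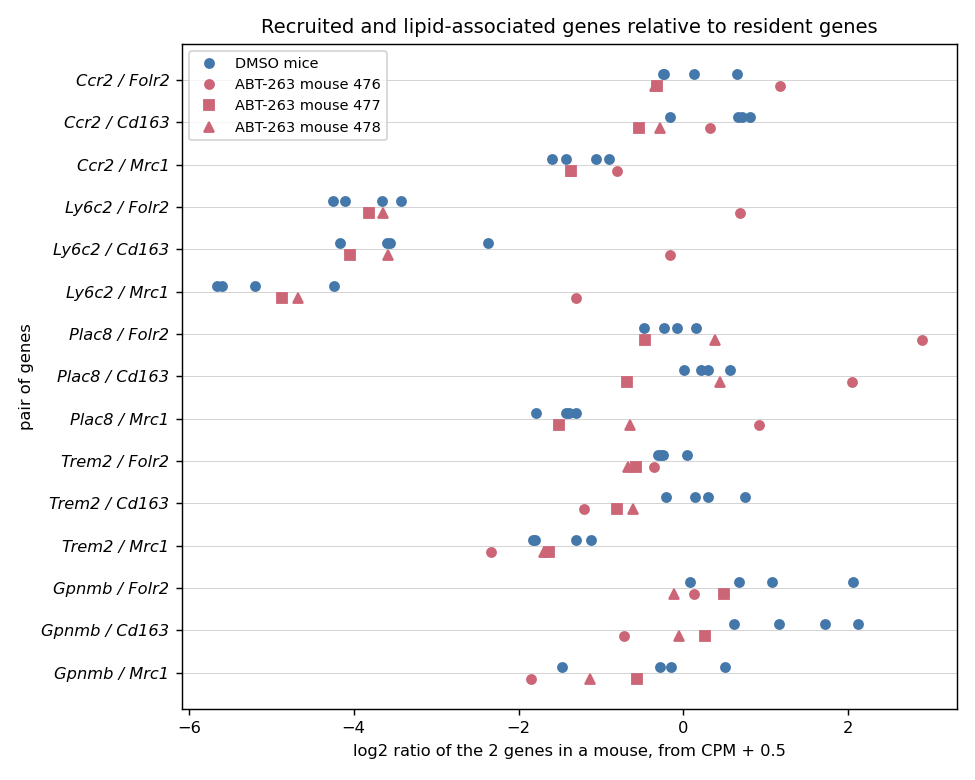
Log2 ratios of 5 recruited or lipid-associated genes to 3 resident genes in each mouse, from CPM + 0.5, with DMSO mice above and ABT-263 mice below each line. In the 3 Ly6c2 pairs mouse 476 lies to the right of all others, and in the pairs Trem2/Folr2, Trem2/Cd163 and Gpnmb/Cd163 the 3 treated mice lie to the left of all DMSO mice.

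Of the 2 scavenger receptors that bind modified lipoproteins and bacteria, Msr1 rose and Marco did not pass. Msr1 was at 4.87, 1.22, 4.05 and 2.63 CPM in DMSO mice 480 to 483 and at 55.2, 7.96 and 11.2 CPM in ABT-263 mice 476 to 478, a log2 change of 2.95 ± 0.75 (SE, adjusted p = 0.0294), with 1.59 without mouse 476 (adjusted p = 0.0676). Marco was at 0.246, 0.337, 0.359 and 0.288 CPM in DMSO mice 480 to 483 and at 1.04, 0.983 and 0.4296 CPM in ABT-263 mice 476 to 478, with 6 to 39 counts per library, and its log2 change was 1.39 ± 0.45 (SE, adjusted p = 0.0562).

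Of 5 Fc receptor and adaptor genes, 4 rose. Fcgr1, Fcgr3 and Fcgr4 encode activating receptors for IgG, Fcer1g the adaptor through which they signal, and Tyrobp (DAP12) an adaptor of other receptors, Trem2 among them. Fcgr3 was at 22.4, 8.38, 16.01 and 16.5 CPM in DMSO mice 480 to 483 and at 221, 49.8 and 64.8 CPM in ABT-263 mice 476 to 478, without overlap, a log2 change of 2.82 ± 0.56 (SE, adjusted p = 0.0147), and 1.86 without mouse 476 (adjusted p = 0.0209). Tyrobp was at 32.9, 13.9, 32.7 and 26.3 CPM in DMSO mice 480 to 483 and at 246, 60.8 and 75.1 CPM in ABT-263 mice 476 to 478 and likewise kept the call, with 2.26 ± 0.53 (SE, adjusted p = 0.0232) against 1.37 without mouse 476 (adjusted p = 0.0389). Fcgr1 was at 14.5, 2.87, 11.04 and 8.42 CPM in DMSO mice 480 to 483 and at 93.7, 19.8 and 32.2 CPM in ABT-263 mice 476 to 478, with 2.397 ± 0.65 (SE, adjusted p = 0.0358) against 1.503 (adjusted p = 0.127).

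Fcgr4 was the 1 gene of the 38 past the threshold whose groups overlapped. It was at 7.57, 1.05, 2.82 and 3.04 CPM in DMSO mice 480 to 483 and at 155, 7.28 and 13.6 CPM in ABT-263 mice 476 to 478, so that DMSO mouse 480 lay above ABT-263 mouse 477. The log2 change was 4.01 ± 1.16 (SE, adjusted p = 0.0443), against 1.53 without mouse 476 (adjusted p = 0.175). Fcer1g was at 78.1, 28.9, 65.9 and 50.8 CPM in DMSO mice 480 to 483 and at 292, 83.3 and 83.7 CPM in ABT-263 mice 476 to 478. Its log2 change of 1.45 ± 0.52 (SE, adjusted p = 0.0769) did not pass. Fcgr4, Fcgr3 and Fcer1g lie close together, at chr1:171018920-171029761, chr1:171051174-171064935 and chr1:171229572-171234365. Fcgr3 shares 12.8% of its 50-base stretches with the neighboring Fcgr2b, the inhibitory receptor, which rose too, lying between 14.8 and 40.1 CPM in the DMSO mice and between 71.7 and 223 CPM in the ABT-263 mice, with a log2 change of 2.19 ± 0.46 (SE, adjusted p = 0.0173). Among the 11 signalling genes downstream of these receptors and of the lectins, Fcgr2b included, 6 rose and none fell, with a median log2 change of 1.299 (0.68 and 2 genes without mouse 476). They included the kinases Lyn, which lay between 6.91 and 12.9 CPM in the DMSO mice and between 19.5 and 91.99 CPM in the ABT-263 mice, and Fgr, which lay between 2.15 and 6.18 CPM in the DMSO mice and between 8.399 and 48.7 CPM in the ABT-263 mice.

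The C-type lectins divided into 3 that rose by more than 16-fold and 2 that did not pass. Clec4d, Clec4e (Mincle) and Clec7a (dectin-1) recognize fungal and mycobacterial glycans, and Clec4e also a protein released by dead cells. Clec4e was at 1.31, 1.05, 1.13 and 1.85 CPM in DMSO mice 480 to 483 and at 102, 10.5 and 4.47 CPM in ABT-263 mice 476 to 478. Its log2 change was 4.86 ± 1.06 (SE, adjusted p = 0.0204), and 2.49 without mouse 476 (adjusted p = 0.017). Clec4d, its neighbor on the chromosome (chr6:123262111-123275265 and chr6:123281789-123289870), was at 4.296, 4.13, 2.31 and 5.46 CPM in DMSO mice 480 to 483 and at 188, 28.5 and 9.302 CPM in ABT-263 mice 476 to 478, a log2 change of 4.21 ± 0.96 (SE, adjusted p = 0.0231), with 2.22 without mouse 476 (adjusted p = 0.0289). Clec7a was at 2.58, 2.36, 1.03 and 2.63 CPM in DMSO mice 480 to 483 and at 94.99, 7.61 and 6.96 CPM in ABT-263 mice 476 to 478, with 4.07 ± 0.99 (SE, adjusted p = 0.0273) against 1.76 without mouse 476 (adjusted p = 0.0263). All 3 showed no overlap between groups and kept the call without mouse 476.

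Clec10a and Mgl2 encode galactose-type lectins of dermal macrophages and dendritic cells, and lie side by side (chr11:70130329-70137550 for Mgl2 and chr11:70156197-70170834 for Clec10a). Clec10a was at 161, 54.6, 148 and 104 CPM in DMSO mice 480 to 483 and at 292, 126 and 157 CPM in ABT-263 mice 476 to 478, with overlap and a log2 change of 0.72 ± 0.41 (SE, adjusted p = 0.232). Mgl2 was at 10.7, 16.6, 13.4 and 9.94 CPM in DMSO mice 480 to 483 and at 6.11, 8.897 and 10.9 CPM in ABT-263 mice 476 to 478, with overlap and a log2 change of -0.55 ± 0.26 (SE, adjusted p = 0.152). The 2 genes had opposite signs and neither passed. They share sequence, 10.6% of the 50-base stretches of Clec10a and 15.3% of those of Mgl2, so that part of the reads of each may not have been counted uniquely.

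Of the 3 genes linked to repair, 2 rose and 1 fell. Arg1, arginase 1, which turns arginine into ornithine, was at 49.9, 12.3, 11.3 and 12.7 CPM in DMSO mice 480 to 483 and at 246, 166 and 187 CPM in ABT-263 mice 476 to 478. DMSO mouse 480 was above the other DMSO mice and still below every treated mouse. The gene rose 9.26-fold, a log2 change of 3.21 ± 0.57 (SE, adjusted p = 0.0114), and by 3.04 on the log2 scale without mouse 476 (adjusted p = 0.0485). Chil3, the chitinase-like protein Ym1, was at 1.51, 0.5899, 1.08 and 2.34 CPM in DMSO mice 480 to 483 and at 177, 3.38 and 7.24 CPM in ABT-263 mice 476 to 478. Its log2 change of 5.49 ± 1.43 (SE, adjusted p = 0.0334) was the largest of the 38 and rested in size on mouse 476, without which it was 1.94 (adjusted p = 0.0494). Chil3 shares 18.5% of its 50-base stretches with Chil4, which had no counts in the DMSO mice and at most 0.58 CPM in ABT-263 mice.

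Retnla, which encodes RELM-alpha (Fizz1), a secreted protein of macrophages activated by interleukin-4 and of fat tissue, fell. It was at 80.7, 141, 85.2 and 146 CPM in DMSO mice 480 to 483 and at 10.3, 8.87 and 33.5 CPM in ABT-263 mice 476 to 478, with every treated mouse below every DMSO mouse. The gene fell to 0.155 of its DMSO level, a log2 change of -2.69 ± 0.53 (SE, adjusted p = 0.0147). Without mouse 476 the change was -2.41 (adjusted p = 0.0543) and did not pass, whereas it passed in each of the other 6 fits that omit 1 mouse. Adipocyte markers overlapped between the groups, and their summed level was 164, 74.5, 75.2 and 423 CPM in DMSO mice 480 to 483 and 431, 95.4 and 643 CPM in ABT-263 mice 476 to 478. Their part in the result was not tested.

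Of the receptors for complement fragments, C3ar1 rose and C5ar1 did not pass. C3ar1 was at 11.9, 4.59, 10.4 and 11.3 CPM in DMSO mice 480 to 483 and at 64.96, 16.5 and 30.1 CPM in ABT-263 mice 476 to 478, a log2 change of 1.96 ± 0.49 (SE, adjusted p = 0.0283), with 1.29 without mouse 476 (adjusted p = 0.07401). C5ar1 was at 10.9, 2.19, 12.1 and 10.4 CPM in DMSO mice 480 to 483 and at 61.7, 13.2 and 14.2 CPM in ABT-263 mice 476 to 478, a log2 change of 1.73 ± 0.71 (SE, adjusted p = 0.111). Cybb, the catalytic subunit of the phagocyte oxidase that makes superoxide, was at 34.5, 15.5, 35.01 and 21.7 CPM in DMSO mice 480 to 483 and at 132, 29.6 and 34.03 CPM in ABT-263 mice 476 to 478, and its groups overlapped, with a log2 change of 1.29 ± 0.56 (SE, adjusted p = 0.125). By the DESeq2 Wald test C5ar1 and Cybb passed, at adjusted p of 0.0267 and 0.0483, as did Aif1 at 0.0481 and Fcer1g at 0.0161. That test called 25 of the 35 members it gave an adjusted p higher, against 13.9% of all genes. It gave none for Ly6c2, Clec7a and Chil3. Of the 5 other subunits and partners of the oxidase, 1 rose, Ncf4, which lay between 2.65 and 5.75 CPM in the DMSO mice and between 9.12 and 53.2 CPM in the ABT-263 mice, and none fell.

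A separate list of 10 genes held growth factors and attractants of macrophages, the receptor chains Csf2ra and Csf2rb, and the complement gene C3. Of these, 4 rose (Csf1, Csf2ra, Csf2rb and C3) and none fell, with a median log2 change of 1.94 (0.78 and 3 genes without mouse 476). The chemokine genes of the list, Ccl2, Ccl7, Ccl12 and Cx3cl1, did not pass. Csf1, the ligand of Csf1r, lay between 20.3 and 31.1 CPM in the DMSO mice and between 42.97 and 59.2 CPM in the ABT-263 mice, with a log2 change of 0.96 ± 0.18 (SE, adjusted p = 0.0118). Il34, the other ligand of Csf1r, made by keratinocytes, lay between 25.4 and 50.2 CPM in the DMSO mice and between 14.2 and 22.3 CPM in the ABT-263 mice, lower in every treated mouse, with a log2 change of -0.83 ± 0.27 (SE, adjusted p = 0.0568) that did not pass. By the DESeq2 Wald test Il34 was lower (adjusted p = 0.0248), and that test called 6 of the 10 genes higher and 1 lower. Csf2ra, a receptor chain for GM-CSF, lay between 4.03 and 5.11 CPM in the DMSO mice and between 14.04 and 50.6 CPM in the ABT-263 mice, with a log2 change of 2.498 ± 0.46 (SE, adjusted p = 0.0117). Csf2rb, the other chain, lay between 12.2 and 22.3 CPM in the DMSO mice and between 29.2 and 213 CPM in the ABT-263 mice, with a log2 change of 2.45 ± 0.64 (SE, adjusted p = 0.0325). Ccl2, the main ligand of Ccr2, was at 6.18, 1.43, 5.13 and 5.505 CPM in DMSO mice 480 to 483 and at 90.4, 5.04 and 9.39 CPM in ABT-263 mice 476 to 478, high in mouse 476 alone, and its log2 change of 2.93 ± 1.002 (SE, adjusted p = 0.06996) did not pass.

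Of 10 genes for the recognition and uptake of dying cells, 4 rose and none fell, with a median log2 change of 0.61 (0.56 and 3 genes without mouse 476). Pros1, a bridging ligand for phosphatidylserine, lay between 35.1 and 46.3 CPM in the DMSO mice and between 70.7 and 107 CPM in the ABT-263 mice. Dock2, an activator of Rac in leukocytes, lay between 4.55 and 7.49 CPM in the DMSO mice and between 12.5 and 32.1 CPM in the ABT-263 mice, and Cd300lf, a lipid receptor of myeloid cells, lay between 0.616 and 1.47 CPM in the DMSO mice and between 5.22 and 86.9 CPM in the ABT-263 mice. Mertk, a receptor by which resident macrophages take up dying cells, lay between 14.9 and 16.9 CPM in the DMSO mice. It was at 25.4, 11.8 and 9.52 CPM in ABT-263 mice 476 to 478, so that mice 477 and 478 lay below every DMSO mouse. Its log2 change was -0.03 ± 0.32 (SE, adjusted p = 0.948) with all mice and -0.57 (adjusted p = 0.0724) without mouse 476. Of 8 other myeloid transcription factors, 2 rose, namely Irf8, which lay between 8.38 and 12.2 CPM in the DMSO mice and between 23.7 and 73.6 CPM in the ABT-263 mice, and Tfec, which lay between 0.211 and 1.13 CPM in the DMSO mice and between 2.14 and 11.7 CPM in the ABT-263 mice. The median log2 change over the 8 was 0.400. Without mouse 476 it was 0.01 and only Irf8 passed, and 12.4% of all genes rose with all mice. Over all 77 genes of these lists 28 rose and none fell, with a median log2 change of 1.05, and 16 rose without mouse 476.

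Summed markers of neutrophils, fibroblasts and endothelial cells were also higher in every treated mouse than in any DMSO mouse. Those of skeletal muscle and melanocytes were lower, and the sums of the other cells listed overlapped between groups. The part of these cells in the result was not tested. The 14 neutrophil markers summed to 1939.8, 122, 1476 and 615 CPM in DMSO mice 480 to 483 and 9749, 5329.6 and 5821 CPM in ABT-263 mice 476 to 478, without overlap, and 4 of the 8 that could be tested rose, against 12.4% of all genes (2 and 6.01% without mouse 476). S100a8 and S100a9 gave between 79.8% and 95.1% of this sum in each mouse. The other 12 markers, summed apart after the values were seen, came to 136, 24.6, 106 and 73.3 CPM in the DMSO mice and 1822, 261 and 285.6 CPM in the ABT-263 mice, also without overlap. Lcn2 was the largest part of this second sum in each ABT-263 mouse. It was at 106, 8.43, 86.5 and 50.04 CPM in DMSO mice 480 to 483 and at 1028, 192 and 220 CPM in ABT-263 mice 476 to 478. Its change did not pass (adjusted p = 0.0508). Csf3r, the receptor for granulocyte growth factor, lay between 1.35 and 3.72 CPM in the DMSO mice and between 10.7 and 77.98 CPM in the ABT-263 mice, and Mmp9, a gelatinase, lay between 7.905 and 12.9 CPM in the DMSO mice and between 35.7 and 316 CPM in the ABT-263 mice. S100a8, a calcium-binding protein that, like S100a9, keratinocytes make as well, lay between 59.3 and 518 CPM in the DMSO mice and between 1714 and 2912 CPM in the ABT-263 mice. Ly6g, by which neutrophils are defined, was at 0, 0.253, 0 and 0.123 CPM in DMSO mice 480 to 483 and at 13.98, 0.101 and 0.172 CPM in ABT-263 mice 476 to 478, and the granule gene Ngp was at 0, 0, 0.103 and 0.123 CPM in DMSO mice 480 to 483 and at 14.7, 0.0756 and 0 CPM in ABT-263 mice 476 to 478. Both were therefore at or near 0 outside mouse 476.

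Langerhans and dendritic cell markers summed to between 774 and 1710.2 CPM in the DMSO mice and between 1396 and 5738 CPM in the ABT-263 mice, the high value being in mouse 476, and 2 of 10 tested rose. Mast cell markers summed to between 55.9 and 158 CPM in the DMSO mice and between 79.8 and 219 CPM in the ABT-263 mice and 1 of 6 rose. Counts of 2 of 10 and 1 of 6 are close to the 12.4% of all genes that rose. T and NK cell markers summed to between 12.4 and 23.1 CPM in the DMSO mice and between 11.3 and 48.5 CPM in the ABT-263 mice, with none of 6 tested past the threshold and Ncr1 at 0 in all DMSO mice. B and plasma cell markers summed to between 1.64 and 11.01 CPM in the DMSO mice and between 2.75 and 138 CPM in the ABT-263 mice, of which 133 CPM in mouse 476 was Jchain. Red blood cell markers summed to between 152 and 268 CPM in the DMSO mice and between 128 and 1689 CPM in the ABT-263 mice, again highest in mouse 476, and none of 4 passed. The summed level of each of these lists, and of the neutrophil list, was thus highest in mouse 476. For the Langerhans and dendritic list most of that sum came from Cd74 (2905 CPM), H2-Ab1 (1615 CPM) and H2-Aa (1180 CPM). Of its 12 genes, 7 were highest among the treated mice in mouse 476. Cd207 went the other way, at 0.93 CPM in mouse 476, below every other mouse.

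The skin itself was represented in every library. Keratinocyte markers summed to between 25622 and 67014 CPM in the DMSO mice and between 19050.1 and 58358 CPM in the ABT-263 mice and none of 6 passed. Sebaceous gland markers summed to between 2066 and 4521 CPM in the DMSO mice and between 1786 and 3233 CPM in the ABT-263 mice, with none of 4 past the threshold. Fibroblast markers summed to between 3692 and 5135 CPM in the DMSO mice and between 5768 and 8073 CPM in the ABT-263 mice and 3 of 5 rose, and endothelial markers to between 83.7 and 176 CPM in the DMSO mice and between 268 and 355 CPM in the ABT-263 mice, with 3 of 4 higher. Skeletal muscle markers summed to between 27918 and 56768 CPM in the DMSO mice and between 19754 and 26234 CPM in the ABT-263 mice, with 2 of 5 lower, and 1 of the 4 melanocyte markers was lower. Over all genes tested, 12.4% rose and 11.7% fell. Summed levels of muscle and pigment cell markers were thus lower where those of the macrophage genes were higher, and their part in the result was not tested.

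**Figure D5:**
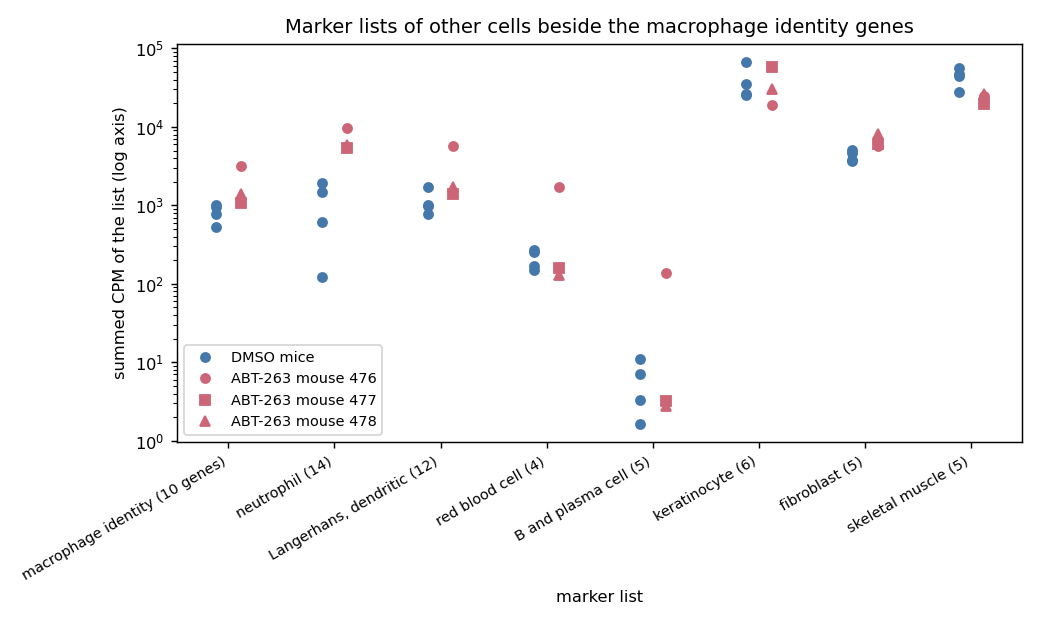
Summed CPM (log axis) of the 10 macrophage identity genes and of marker lists of 7 other kinds of cell in each mouse, with DMSO mice to the left and ABT-263 mice to the right of each list. Neutrophil and fibroblast sums lie above all DMSO mice in the 3 treated mice and muscle sums below, while red blood cell and plasma cell sums are high in mouse 476 alone.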

How the data were processed

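RNA sequencing of whole dorsal skin from 7 mice was analyzed. The authors aligned reads with STAR 2.7.9a to mm10 and counted uniquely aligned proper pairs on the same strand per Ensembl gene with featureCounts (Subread 1.6.2), leaving out mitochondrial genes, and they deposited these counts without normalization. The authors also deposited variance-stabilized values on a log2 scale, made with DESeq2, which served as an alternative. Other data of the study were not analysed here. The labels and the paper's methods name different kits for the extraction of RNA.

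GENCODE M21 (GRCm38) gave symbols, exon lengths and GC content for 55190 of 55450 identifiers. Genes were tested mainly by quasi-likelihood in edgeR 4.0.16 under R 4.3.3 (TMM normalization, filterByExpr, robust, two-sided), with Benjamini-Hochberg adjustment over 17959 genes and a threshold of 0.05; the paper's methods used DESeq2, run here (1.42.0) as an alternative, as were limma 3.58.1 on the variance-stabilized values, other filters and scalings, thinned counts and the omission of each mouse. The edgeR fit was tested on simulated counts that gave every gene the same relative spread and held no outlying mouse. That test does not bear on calls that turn on mouse 476. Ratios used CPM + 0.5. Shared stretches of 50 bases were counted in the GENCODE transcripts. The members and lists were chosen with earlier results of these data known. All members are named or counted, and from other lists at most 3 genes per direction with the smallest p past the threshold, plus genes named for their role after their values were seen. No column of another sample was met (0 unmatched). Precision was limited by 3 and 4 mice; separate housing or litters are not given in the sources used here, so p-values measure the spread between these mice.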

Additional observations from a re-analysis of the deposited data

Results flagged for a closer look

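Within the 4 DMSO mice, 1 mouse stood apart from the others in 4 of the 38 genes, measured as its gap to the nearest mouse divided by the range of the group and set against Dixon's 95% critical value for 4 samples. Chance gives about 1 such flag in 20, or 1.9 in 38, and the genes are not independent. Arg1 was high in DMSO mouse 480 (gap over range 0.964), at 49.9 CPM against 12.3, 11.3 and 12.7 CPM. Trem2 (0.833) and C5ar1 (0.831) were low in DMSO mouse 481, at 8.22 and 2.19 CPM, and that mouse was the lowest of the 4 in 30 of the 38 genes. Clec7a was low in DMSO mouse 482 (0.832), at 1.03 CPM. The 3 ABT-263 mice are too few for this comparison, so mouse 476 was not examined by it.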

How the results depend on the processing

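Of 38 members, 24 rose and 2 fell, with a median log2 change of 1.64. The counts of genes that rose were 23 with DESeq2 size factors, 25 by the DESeq2 Wald test, 23 with at least 10 counts in every library, 18 with limma on variance-stabilized values, 24 after thinning, 24 with trends of length and GC content removed and 22 among protein-coding genes (without Clec7a, typed as a polymorphic pseudogene), and 2 fell in each of these. With every gene that had a count kept, 3 rose (Csf1r, Cd163 and Arg1) and 1 fell (Maf), of 30645 genes tested, 6.11% of which rose. The median was 1.67 there. Leaving out 1 mouse gave 4 to 23 genes higher, 1 to 2 lower and a median of 1.22 to 2.01. The fewest genes were higher without DMSO mouse 483 and the most without ABT-263 mouse 477, and the cause was not tested. The lowest median, 1.22, was that without ABT-263 mouse 476. Apoe, at 0.01 on the log2 scale, changed sign among protein-coding genes (-0.025) and without mice 481, 482, 477 or 478 (-0.094 to 0.13 over the 7 omissions), and Laptm5 without mouse 476 (-0.026 to 0.65 over the 7). Of 563 values of single genes under all alternatives, 436 kept direction and call, 117 lost the call, 4 gained it and 6 changed sign. The 15 ratio differences, recomputed as values with no test, moved by less than the larger of the groups' SDs with a pseudocount of 0.1, after thinning and without any 1 mouse. That SD includes mouse 476, which lies far out in the Ly6c2 and Plac8 ratios: without it 4 of the differences changed sign and that of Ly6c2 to Folr2 went from 1.598 to 0.13, while a pseudocount of 0.1 gave 2.02. No paired analysis was possible because the groups share no mouse numbers. The roles' counts without mouse 476 were added after seeing the data: 3 of 10 identity genes, 1 of 3 resident, 0 of 4 recruited, 0 of 3 lipid-associated, 0 of 2 scavenger, 2 of 5 Fc receptor, 3 of 5 lectin, 2 of 3 repair and 0 of 3 complement and oxidase genes rose. Over all genes tested in that fit 6.01% rose. In roles this small a count of 0 cannot be told apart from that share, and differences between roles were not tested.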
